A study of Rattus norvegicus with 11 samples.

Results

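Type A intercalated cells are the acid-secreting cells of the renal collecting duct. In a single-cell survey of ZSF1 rat kidneys, 2552 of 114615 cells carried the authors' name IC-A and were taken as type A intercalated cells, 2.23% of all cells and the 11th most common of 21 types. The choice rests on that deposited name alone. Cells named IC-A/B were left out. The table holds no gene values, so the name could not be checked against Slc4a1, the chloride-bicarbonate exchanger of the basal membrane of type A cells, or against Kit, a receptor tyrosine kinase. The animals were male ZSF1 rats, 12 weeks old on arrival, and the labels give all of them the genotype ZSF1-LeprfaLeprcp/Crl and tell lean from obese by phenotype. There were 4 lean rats with the treatment none, 4 obese rats with the treatment none whose drinking water held vehicle, and 3 obese rats whose drinking water held enalapril, an inhibitor of angiotensin-converting enzyme. Whether vehicle was also given to lean rats is not in the labels. All groups had the same energy-rich chow. The series title names blockade of the renin-angiotensin-aldosterone system in diabetic kidney disease, and the comparisons ask how type A cells differed with obesity and with the drug.

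Type A cells pump protons into the urine through a vacuolar proton pump in the apical membrane and return bicarbonate to the blood. Type B intercalated cells (IC-B) face the other way and secrete bicarbonate, and principal cells (PC), which lie between them, take up sodium and water and respond to aldosterone. Angiotensin II and aldosterone are known to act on type A cells as well as on principal cells. Both kinds of intercalated cell are rich in mitochondria. The distal convoluted tubule (DCT) and the joint DCT/CNT type, where CNT is the connecting tubule, lie just upstream.

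The libraries differed in depth, with a median of 407 to 3092 UMIs (unique molecular identifiers, each standing for 1 captured transcript) per cell. Lean rat 2 stood apart, as 12 of its 4232 cells had at least 1000 UMIs. The value without it is given for many of the results that it moves, but not for all of them. For some, only a range over fits without 1 animal is given, under the dependence on processing. A barcode found in another library as well was carried by 76 of the 2552 IC-A cells, and 0 barcodes were shared by a pair of IC-A cells.

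On the authors' 2-dimensional map, IC-A cells formed a group of their own. Of the 30 nearest cells to an IC-A cell, 99.0% were also named IC-A, 0.956% IC-A/B and 0.0392% IC-B. By animal the share named IC-A ran from 97.5% in obese rat 2 to 99.98% in lean rat 2. The nearest cell of any other name was an IC-A/B cell for 2198 IC-A cells, a principal cell for 353 and an IC-B cell for 1. So the joint type, not type B, bordered the type A cells on this map. Fewer than 50% of the neighbours had the same name for 18 IC-A cells, 17 of them among IC-A/B cells. These 18 had a median of 794 UMIs against 4069 for the others, and a median of 25.4% mitochondrial UMIs against 11.4%. The map was made from the same cells as the names, so this describes the naming and is not a test of it.

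The number of IC-A cells was 258, 448, 321 and 152 in lean rats 1 to 4, which was 2.31%, 10.6%, 4.17% and 2.35% of all cells of the animal. In obese rats 1 to 4 the numbers were 148, 134, 280 and 99, or 1.36%, 1.90%, 2.43% and 0.537%. In treated rats 1 to 3 they were 326, 264 and 122, or 1.82%, 2.31% and 1.56%. Lean rat 2 had by far the highest share, 3 of 4 obese rats lay below every lean rat, and obese rat 3 lay between the lean values. Counting error was small beside the gap between the highest and the lowest animal. The exact 95% Clopper-Pearson interval was 9.67% to 11.6% in lean rat 2 and 0.437% to 0.654% in obese rat 4, and such intervals cover counting error only. Among the non-immune types, IC-A ranked between 2nd, in lean rat 2, and 10th in number of cells.

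**Figure D1:**
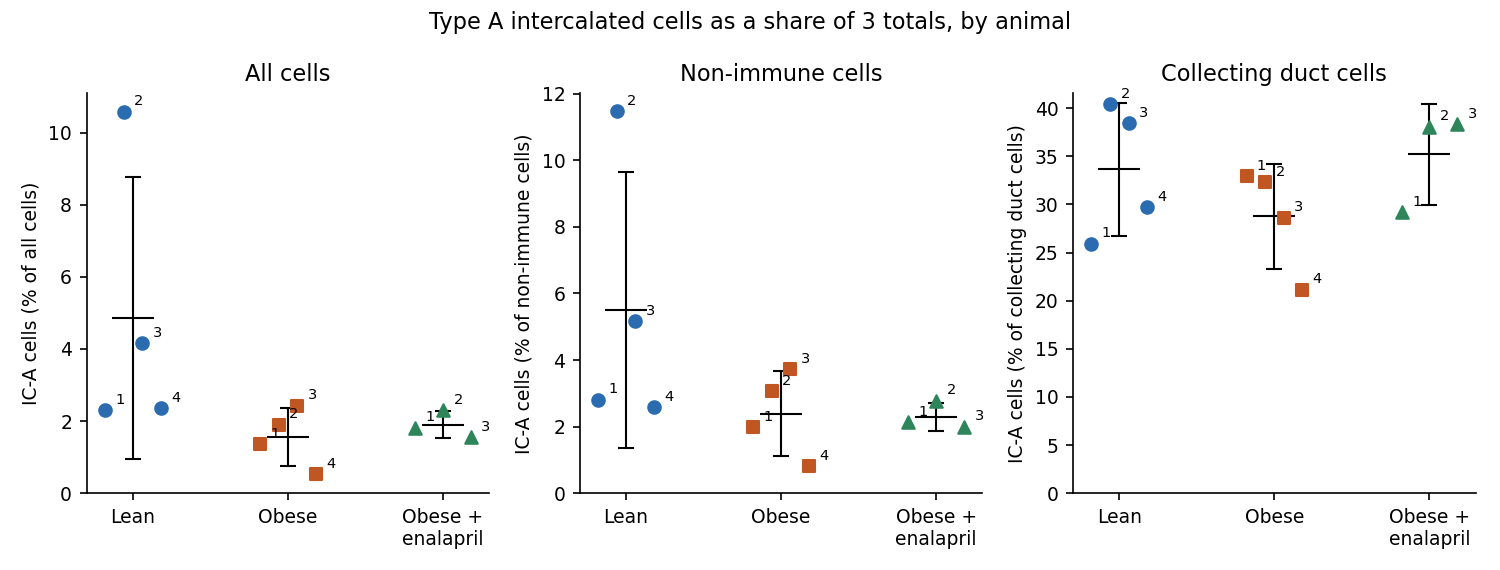
IC-A cells as a percent of all cells (left), of non-immune cells (middle) and of collecting duct cells (right) on linear axes from 0; each point is 1 animal with its replicate number, the long bar is the group mean and the whiskers are ± 1 SD (lean n = 4, obese n = 4, obese with enalapril n = 3). Lean rat 2 stands at 10.6% of all cells, the other lean rats between 2.31% and 4.17%, and the obese rats between 0.537% and 2.43%, whereas the 3 groups overlap as a share of the collecting duct.

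IC-A cells fell in obese rats relative to lean rats, from a mean of 4.85% ± 3.92 of all cells (SD, n = 4) to 1.56% ± 0.806 (SD, n = 4). In edgeR's quasi-likelihood test with Benjamini-Hochberg adjustment over 20 types, the log2 fold change was -1.64 ± 0.53 (SE, adjusted p = 0.0141). The same contrast called 60.0% of the types tested, 30.0% of them lower in obese rats, so a fall of this kind was common among the types. Without lean rat 2 the lean mean was 2.94% ± 1.06 (SD, n = 3) and the change was -0.92 ± 0.44 (adjusted p = 0.0715), so the call rests on that shallow library. Leaving out any other animal kept the call in the 10 fits made.

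The size of the fall also depended on what IC-A cells were counted against. The immune share averaged 13.4% ± 5.96 over the 4 lean and 34.4% ± 2.74 over the 4 obese animals (SD). Shares of 1 total depend on each other, and whether the immune share bears on the fall of IC-A cells was not tested. Of the non-immune cells alone, IC-A cells were 2.81%, 11.5%, 5.18% and 2.58% in lean rats 1 to 4 and 1.99%, 3.06%, 3.72% and 0.811% in obese rats 1 to 4. Here 2 of 4 obese rats lay below every lean rat. The edgeR log2 fold change over non-immune cells was -1.20 ± 0.54 (adjusted p = 0.109), and without lean rat 2 it was -0.56 ± 0.46 (adjusted p = 0.446). With only cells of at least 1000 UMIs and no lean rat 2, the share of all cells changed by -0.98 ± 0.50 (edgeR adjusted p = 0.115). An exact two-sided permutation test of logit shares gave p = 0.0857 (adjusted p = 0.156). With 4 against 4 animals its smallest p is 0.0286, and with 8 of 20 types (40.0%) without overlap no type could pass it after adjustment.

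Within the collecting duct, the share of IC-A cells did not pass the test in any contrast. IC-A cells made up 25.9%, 40.4%, 38.5% and 29.7% of the collecting duct cells (IC-A, IC-B, IC-A/B and PC) of lean rats 1 to 4. In obese rats 1 to 4 they made up 33.0%, 32.3%, 28.6% and 21.2%, and in treated rats 1 to 3 they made up 29.2%, 38.1% and 38.4%. The groups overlapped, with the lowest value in obese rat 4. The edgeR log2 fold change within the compartment was -0.23 ± 0.19 for obese against lean rats (adjusted p = 0.348 over 17 types), and -0.13 ± 0.20 without lean rat 2 (adjusted p = 0.545). It was 0.29 ± 0.21 for treated against untreated obese rats (adjusted p = 0.425) and 0.06 ± 0.21 for treated obese against lean rats (adjusted p = 0.893). Without lean rat 2 the latter was 0.16 ± 0.22 (adjusted p = 0.623). With all animals, the 3 contrasts called 23.5%, 5.88% and 29.4% of the 17 types, and IC-A was in none of these sets. Between treated obese and lean rats, principal cells were called higher (1.225, edgeR adjusted p = 0.0478) and IC-A/B lower (-0.92, adjusted p = 0.0478). Without lean rat 2 principal cells still passed (0.999, adjusted p = 0.0376) and IC-A/B did not (-0.88, adjusted p = 0.06).

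As a share of all cells, IC-B, IC-A/B, DCT and DCT/CNT cells also fell in obese against lean rats. IC-B changed by -1.73 ± 0.51 (edgeR adjusted p = 0.0118) and IC-A/B by -1.18 ± 0.49 (adjusted p = 0.0468). DCT cells changed by -2.07 ± 0.43 (adjusted p = 0.00075) and DCT/CNT cells by -1.26 ± 0.45 (adjusted p = 0.0213), while principal cells did not pass (-0.26 ± 0.42, adjusted p = 0.583). IC-B (-1.30, adjusted p = 0.0116) and DCT cells (-2.02, adjusted p = 9.59e-05) still passed when lean rat 2 was left out, and IC-A/B (-0.54, adjusted p = 0.309) and DCT/CNT (-0.73, adjusted p = 0.151) did not. These contrasts share their animals and totals, so the ratio of IC-A to each other type was tested directly, with limma on the log2 ratio of cell numbers over all 19 other tested types. A ratio needs no total over all cells.

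There were 0.723, 1.45, 1.21 and 0.974 IC-A cells per IC-B cell in lean rats 1 to 4, and 1.33, 1.51, 1.15 and 1.02 in obese rats 1 to 4. Treated rats 1 to 3 had 0.713, 1.69 and 2.14. All 3 groups overlapped, and the difference between obese and lean rats was 0.23 ± 0.48 on the log2 scale (limma adjusted p = 0.676, and 0.39 ± 0.43 without lean rat 2). A difference in the balance of type A and type B cells was thus not detectable with these animals.

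IC-A cells outnumbered principal cells in all 11 animals. There were 1.60, 7.34, 4.06 and 2.71 IC-A cells per principal cell in lean rats 1 to 4, 1.20, 1.74, 1.69 and 1.55 in obese rats 1 to 4, and 1.71, 1.44 and 1.23 in treated rats 1 to 3. Lean rats 2, 3 and 4 lay above all 7 obese rats, treated or not, and lean rat 1 lay among them. The log2 ratio differed by -1.14 ± 0.51 between obese and lean rats (limma adjusted p = 0.0871) and by -1.22 ± 0.55 between treated obese and lean rats (adjusted p = 0.144), and neither passed. Without lean rat 1 both did (-1.50 and -1.57, adjusted p = 0.0166 and 0.0412). Without lean rat 2 they were -0.77 and -0.84 (adjusted p = 0.139 and 0.158).

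**Figure D2:**
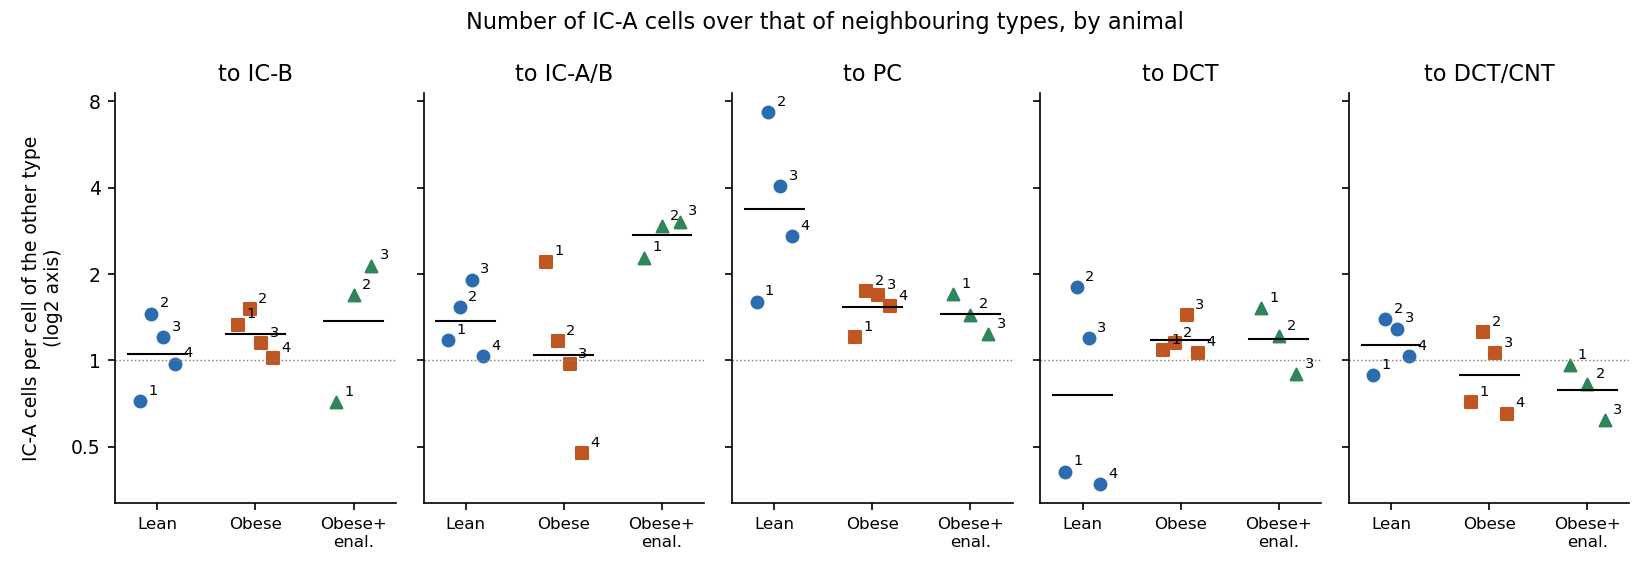
Number of IC-A cells per cell of IC-B, IC-A/B, PC, DCT and DCT/CNT in each animal, on a log2 axis; points are animals with their replicate numbers, short lines are geometric means and the dotted line marks equal numbers. The lean rats spread from 1.60 to 7.34 IC-A cells per principal cell and the obese rats from 1.20 to 1.74, and all 3 treated rats lie above all other animals in the ratio to IC-A/B.

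The ratio of IC-A to DCT cells was 0.409, 1.80, 1.19 and 0.370 in lean rats 1 to 4 and 1.09, 1.15, 1.44 and 1.06 in obese rats 1 to 4. The obese values all lay inside the lean range, and the difference did not pass (0.64 ± 0.55, limma adjusted p = 0.340). Leaving out 1 animal moved it between 0.29 without lean rat 4 and 1.05 without lean rat 2 (adjusted p = 0.700 and 0.0716), with 0.34 without lean rat 1. The ratio to DCT/CNT cells went from 1.15 ± 0.232 over the lean animals (SD, n = 4) to 0.919 ± 0.285 over the obese ones (SD, n = 4, log2 difference -0.36 ± 0.45, adjusted p = 0.508). In all, limma called 8 of the 19 ratios lower in obese rats (42.1% of those tested) and 0 higher. The partners of those 8 were B cells, T cells, monocytes, macrophages, the joint monocyte and macrophage type, podocyte or stroma cells, straight proximal tubule and descending thin limb. No type of the collecting duct or the distal tubule was among them. Between treated obese and lean rats 15.8% of the ratios were called, all 3 of them lower (B cells, descending thin limb and the joint monocyte and macrophage type). The 19 ratios share the IC-A count and are not independent.

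Enalapril-treated obese rats did not differ detectably from untreated obese rats in the share of IC-A cells. The mean was 1.90% ± 0.377 of all cells with the drug (SD, n = 3) and 1.56% ± 0.806 without it (SD, n = 4), and the treated values all lay inside the untreated range. The edgeR log2 fold change was 0.29 ± 0.56 (adjusted p = 0.680), and the contrast called 0.00% of types (0 of 20, with 2 at an unadjusted p under 0.05, and IC-A not among them). Without obese rat 4 it was -0.00085 ± 0.53, so the small difference rests on that animal. Over non-immune cells it was -0.05 ± 0.58 (adjusted p = 0.979). Against lean rats, treated obese rats had a lower share of IC-A cells among all cells in 3 of 3 animals, each below all 4 lean rats. The margin was very narrow, with 2.305% in treated rat 2 and 2.314% in lean rat 1. As a share of non-immune cells (2.13%, 2.78% and 2.00%) 2 of 3 treated rats lay below every lean rat. In that contrast the groups did not overlap in 30.0% of types, and 15.0% were called. IC-A was not one of them in the edgeR test (-1.35 ± 0.58, adjusted p = 0.0974), and without lean rat 2 the change was -0.63 ± 0.47 (adjusted p = 0.398). The contrasts against lean rats share the 4 lean animals, so they are not independent of each other.

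The treated rats stood out in the ratio of IC-A to the joint IC-A/B type. There were 2.28, 2.93 and 3.05 IC-A cells per IC-A/B cell in treated rats 1 to 3, above the 2.21, 1.17, 0.972 and 0.476 of obese rats 1 to 4 and the 1.18, 1.53, 1.91 and 1.03 of lean rats 1 to 4. The treated group overlapped with neither other group, but the margin over obese rat 1 was narrow. For treated against untreated obese rats 21.1% of the 19 ratios did not overlap, and for treated obese against lean rats 36.8%. The log2 ratio was higher by 1.38 ± 0.56 than in untreated obese rats (limma adjusted p = 0.163, 3 of 3 animals, with 0 of 19 ratios called and 3 at an unadjusted p under 0.05) and by 0.99 ± 0.56 than in lean rats (adjusted p = 0.185). Within the compartment, IC-A/B was the 1 type of 17 that edgeR called between treated and untreated obese rats (-1.19 ± 0.30, adjusted p = 0.0481). Without lean rat 2 this call ended, at -1.19 ± 0.32 (edgeR adjusted p = 0.0561). Of the 3 intercalated types together, IC-A made up 35.2%, 51.8% and 55.7% in treated rats 1 to 3, against 24.5% to 45.4% in untreated obese rats.

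The joint type was a shallow one in every animal. IC-A/B cells had a median of 416 to 1298.5 UMIs by animal, and IC-A cells had more in 11 of 11 animals, 1.18 to 6.99 times as many. How many shallow type A cells carry the joint name was not tested. When IC-A and IC-A/B were counted as 1 type, its share of all cells was lower in obese than in lean rats (edgeR -1.43 ± 0.49, adjusted p = 0.0165) and lower in treated obese than in lean rats (-1.65 ± 0.54, adjusted p = 0.0422). Without lean rat 2 neither passed (-0.75 ± 0.43 and -0.97 ± 0.46, adjusted p = 0.138 and 0.113). Between treated and untreated obese rats that joint count differed by -0.22 ± 0.52 (adjusted p = 0.713), opposite in sign to IC-A alone.

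IC-A cells were among the most RNA-rich cells of the kidney suspension. Their median was 3447, 490.5, 5588 and 5569.5 UMIs in lean rats 1 to 4, 5818, 5597, 7784.5 and 2516 in obese rats 1 to 4, and 2275.5, 6514 and 5828.5 in treated rats 1 to 3. In 10 of 11 animals this ranked 1st, 2nd or 3rd among the types with at least 20 cells, and in obese rat 4 it ranked 8th. The median was 1.19 to 3.36 times that of the other non-immune cells of the same animal. It was above 1.9 times in 9 animals and was 1.21 in lean rat 2 and 1.19 in obese rat 4.

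**Figure D3:**
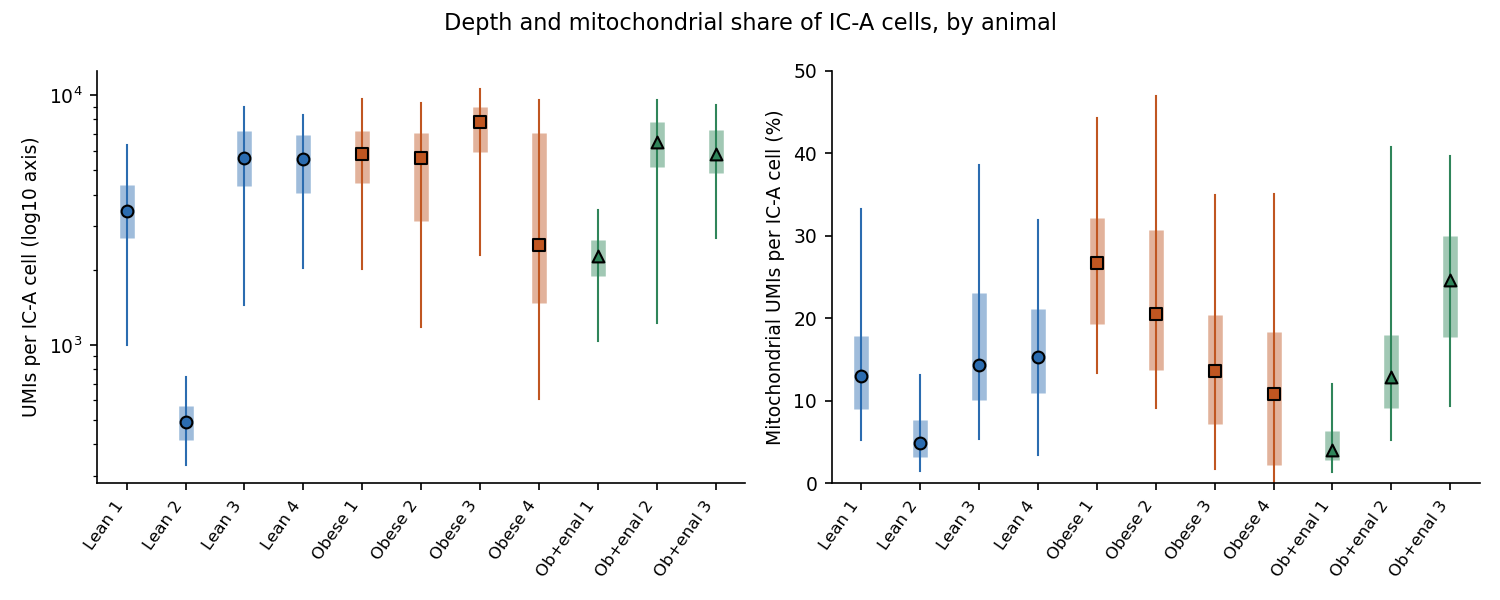
UMIs per IC-A cell on a log10 axis (left) and percent of UMIs from mitochondrial genes on a linear axis (right) in each of the 11 animals; the marker is the median, the thick bar runs from the lower to the upper quartile and the thin line from the 5th to the 95th percentile of the cells. Lean rat 2 has a median of 490.5 UMIs, and the quartiles of obese rat 4 reach from 1473 to 7070.5 UMIs.

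Obese rat 4, the animal with the fewest IC-A cells, also had the widest spread among them. Its quartiles were 1473 and 7070.5 UMIs, a ratio of 4.80, against 1.37 to 2.26 in the other 10 animals. In this rat 34 of 99 IC-A cells had fewer than 2000 UMIs. Its mitochondrial share was uneven across depth, with a median of 16.5% in the 11 cells under 1000 UMIs, 5.26% in 23 cells at 1000 to 2000, 2.82% in 31 cells at 2000 to 4000, and 13.8% both in 15 cells at 4000 to 8000 and in 19 deeper ones. It was also the animal with the lowest ratio of IC-A to IC-A/B cells.

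UMIs per IC-A cell did not pass the test between groups. The limma log2 difference of medians was 0.90 ± 0.73 for obese against lean rats (adjusted p = 0.366), and without lean rat 2 it was 0.08. It was -0.18 ± 0.79 for treated against untreated obese rats (adjusted p = 0.930). IC-A cells were also set against the other non-immune cells of the same animal, which need not take out library depth in full. Their median was 1.21 times that of those cells in lean rat 2, against 2.56 to 2.75 times in the other lean rats. On this measure the limma differences for the same contrasts were 0.13 ± 0.34 (adjusted p = 0.719) and -0.18 ± 0.37 (adjusted p = 0.666). These contrasts called 0.00% of the types for UMIs per cell (0 of 18 and 0 of 19, with 2 and 0 at an unadjusted p under 0.05). In an exact permutation test IC-A was at p = 0.343 and 0.686.

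Genes per IC-A cell followed depth. The median was 1432.5, 287, 2037 and 1965 genes in lean rats 1 to 4, 1775, 1895, 2540.5 and 979 in obese rats 1 to 4, and 980, 2164 and 1731.5 in treated rats 1 to 3. The limma log2 difference was 0.59 ± 0.57 for obese against lean rats (adjusted p = 0.459), which turned to -0.074 ± 0.30 without lean rat 2, and -0.14 ± 0.62 for treated against untreated obese rats (adjusted p = 0.938). In the IC-A cells of all animals together, the median rose from 722 genes at 1000 to 2000 UMIs to 1144 at 2000 to 4000, 2031 at 4000 to 8000 and 2618 at 8000 UMIs and over. At 1000 to 2000 UMIs no lean animal had 20 IC-A cells, and only obese rat 4 (672 genes) and treated rat 1 (797 genes) did, so this window holds 1 animal of each obese group and is given with no test. Against lean rats that window called 6.67% of the other types, and 0.00% between the obese groups.

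Obese rats had fewer genes per IC-A cell than lean rats at 2000 to 4000 UMIs, a window looked at for this contrast after seeing the data, but the difference did not pass the test. The median was 1375.5, 1253 and 1369 genes in lean rats 1, 3 and 4, which had 146, 41 and 29 such cells, and lean rat 2 had 0. It was 1223.5, 1071 and 977 in obese rats 1, 2 and 4, with 22, 27 and 31 cells. All 3 of these obese rats lay below all 3 lean rats. In how many other types the groups lay apart in this window was not counted. Obese rat 3 had too few cells for the test (15) and, at 1321 genes, lay among the lean rats. The limma log2 difference was -0.29 ± 0.090 over 3 against 3 animals (adjusted p = 0.166, unadjusted p = 0.0124), in a contrast that called 0 of 17 types (0.00%, with 2 at an unadjusted p under 0.05). In treated rats 1 to 3 the medians were 1035, 1221 and 1124 genes, from 219, 19 and 13 cells. They lay below all 3 lean rats, again with no count over the other types. Only 1 treated rat had enough cells, so no test is given. How UMIs were spread inside the window was not matched further.

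IC-A cells lay close to the upper end of the deposited range of genes. No cell in the table had more than 2971 genes, and 11.2% of IC-A cells had at least 2500 genes, against 2.02% of all cells. By animal this was 52.1% of the IC-A cells in obese rat 3, 22.7% in treated rat 2 and 11.2% in lean rat 3, against 10.1% or less in the other 8 animals and 0% in lean rat 2 and treated rat 1. This was not particular to type A cells. Of IC-B cells, 34.2% and 39.1% had at least 2500 genes in lean rats 3 and 4. It was 37.3% in obese rat 3, 21.8% in treated rat 2 and 8.99% or less in the remaining animals. Obese rat 3 and treated rat 2 were also the animals with the most UMIs per IC-A cell. Whether IC-A cells with more genes were left out before deposit was not tested.

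The mitochondrial share of IC-A cells varied widely between animals and did not separate the groups. Its median was 12.9%, 4.89%, 14.4% and 15.3% of UMIs in lean rats 1 to 4, 26.6%, 20.5%, 13.6% and 10.8% in obese rats 1 to 4, and 4.09%, 12.8% and 24.6% in treated rats 1 to 3. Obese rats 1 and 2 lay above all lean rats, obese rats 3 and 4 did not, and the 3 treated rats spanned nearly the whole range. The limma difference was 6.01 ± 4.66 percentage points for obese against lean rats (adjusted p = 0.395), 3.69 ± 4.77 without lean rat 2 and 3.10 ± 4.72 without obese rat 1, and -4.04 ± 5.03 for treated against untreated obese rats (adjusted p = 0.683). These contrasts called 5.56% and 0.00% of types, and that of treated obese against lean rats 5.26% (1.97 ± 5.03 for IC-A, adjusted p = 0.875). Without lean rat 2 the mean of the lean medians was 14.2%, above the 13.8% of the treated rats, so that sign turned.

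Set against the other non-immune cells of the same animal, the direction turned. IC-A cells were 0.903, 2.11, 2.14 and 8.58 percentage points above those cells in lean rats 1 to 4, and 5.67, -0.281, -2.16 and -4.65 points apart from them in obese rats 1 to 4. The limma difference between obese and lean rats on this measure was -3.79 ± 2.85 points (adjusted p = 0.240). The median of those other cells averaged 8.44% ± 4.56 over the 4 lean and 18.2% ± 3.06 over the 4 obese animals (SD), with no overlap between these groups. So IC-A cells lay above their surroundings in 4 of 4 lean rats and in 1 of 4 obese rats, and this difference did not pass the test.

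The low end of the distribution belonged to a few animals. IC-A cells under 5% mitochondrial UMIs made up 52.0% in lean rat 2, 63.2% in treated rat 1 and 35.4% in obese rat 4, against 13.9% or less in the other 8 animals and 0% in obese rats 1 and 2. In lean rat 2, treated rat 1 and obese rat 4, 14.6%, 31.3% and 33.0% of IC-B cells lay under 5%. Of principal cells it was 68.9%, 54.5% and 17.2%. Lean rat 2 and treated rat 1 were the shallowest libraries. Obese rat 4 was not, and 17.2% of its IC-A cells had under 1% mitochondrial UMIs, against 3.93% or less elsewhere. The limma difference in the percent of IC-A cells under 5% was -4.55 ± 14.0 points for obese against lean rats (adjusted p = 0.790), which turned to 7.16 ± 13.6 without lean rat 2, and 10.8 ± 15.2 for treated against untreated obese rats (adjusted p = 0.799). These contrasts called 11.1% and 0.00% of types.

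Compared with type B cells of the same animal, IC-A cells had the lower mitochondrial share in 11 of 11 animals, by 1.38 to 11.2 percentage points and by 4.43 at the median. The types were made by clustering these cells, so the gap is a description. Its mean was -4.44 ± 0.979 points over the lean, -4.23 ± 2.32 over the obese and -5.93 ± 4.68 over the treated animals (SD, n = 4, 4 and 3). An exact two-sided permutation test found no difference of this gap between obese and lean rats (0.216 points, p = 0.857, adjusted p = 0.964 over 27 comparisons). Against principal cells, IC-A cells were lower in 8 of 11 animals. Against IC-A/B cells they were higher in 10 of 11, by 9.35 points at the median, so they were not the lowest collecting duct type.

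**Figure D4:**
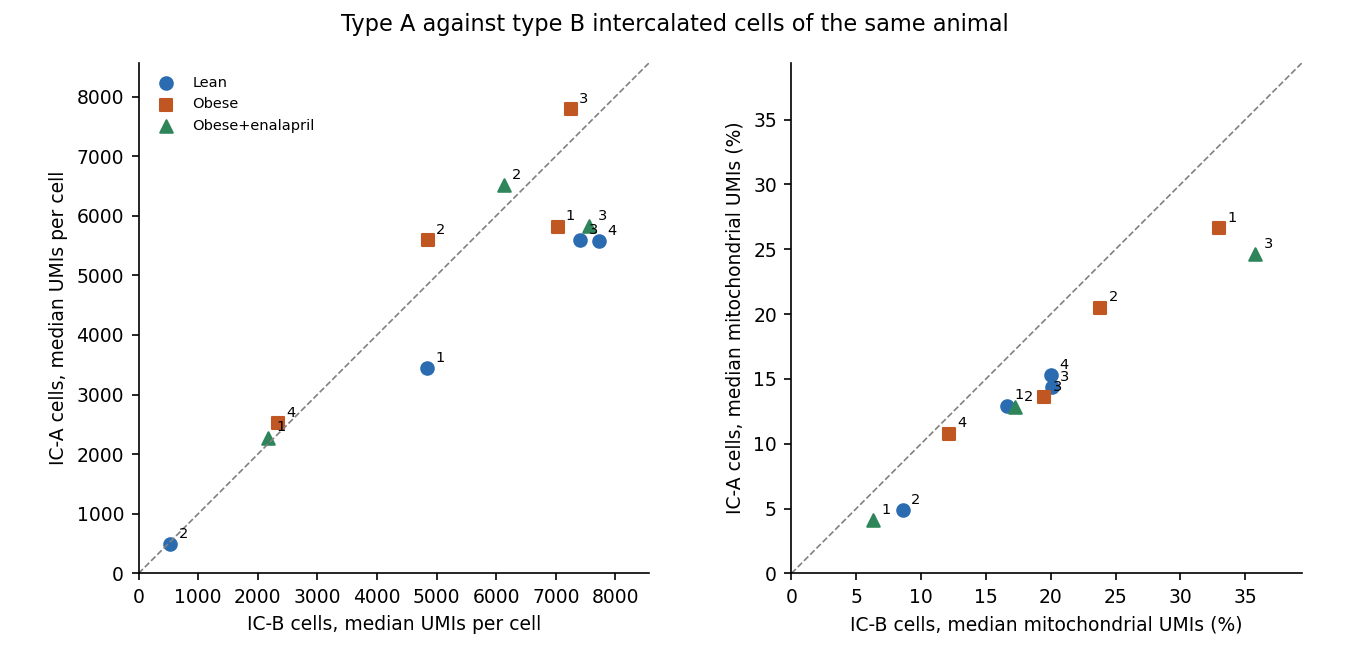
Median UMIs per cell (left) and median percent of mitochondrial UMIs (right) of IC-A cells against IC-B cells of the same animal, on linear axes; each point is 1 animal with its replicate number and the dashed line marks equal values. All 11 animals lie below the line for the mitochondrial percent, and all 4 lean rats lie below it for UMIs, where the obese and treated rats lie on both sides.

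Depth relative to type B cells had the same sign in all lean rats and the other sign in most other rats, but the groups overlapped. IC-A cells had fewer UMIs than IC-B cells in 4 of 4 lean rats, with medians of 3447 against 4835, 490.5 against 528, 5588 against 7413.5 and 5569.5 against 7721.5 in rats 1 to 4. In obese rats 1 to 4 the pairs were 5818 against 7029, 5597 against 4851, 7784.5 against 7254.5 and 2516 against 2337, so that IC-A cells were the deeper in 3 of 4. Treated rats 1 to 3 had 2275.5 against 2171, 6514 against 6129 and 5828.5 against 7558. The IC-A median was 0.713 to 0.929 times that of IC-B cells in lean rats. Obese rat 1 (0.828) and treated rat 3 (0.771) lay inside that range. On the log2 scale the mean gap was -0.37 ± 0.18 over the lean, 0.04 ± 0.21 over the obese and -0.07 ± 0.26 over the treated animals (SD, n = 4, 4 and 3). The gap differed by 0.40 between obese and lean rats in an exact two-sided permutation test (p = 0.0571, adjusted p = 0.771). The smallest p that 4 against 4 animals allow is 0.0286. A single comparison at that p could not pass adjustment over 27. Of 27 such comparisons, over 3 partners, 3 measures and 3 contrasts, 0 passed after adjustment and 0 were at an unadjusted p under 0.05 (0.00% called).

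The deposited phase calls put many IC-A cells into S or G2M, and they are not read here as cell division. S was called for 32.6%, 11.2%, 34.0% and 33.6% of IC-A cells in lean rats 1 to 4, 29.7%, 34.3%, 30.0% and 30.3% in obese rats 1 to 4, and 28.2%, 38.6% and 28.7% in treated rats 1 to 3. Lean rat 2 apart, the animals lay between 28.2% and 38.6%. G2M was called for 20.9%, 23.7%, 20.9% and 19.1% in lean rats, 26.4%, 29.9%, 23.6% and 24.2% in obese rats, and 24.2%, 12.1% and 17.2% in treated rats. The G2M percent was lower by 8.15 ± 2.84 points in treated than in untreated obese rats and did not pass (limma adjusted p = 0.260, unadjusted p = 0.0137, 2 of 3 treated rats below every untreated one). Without treated rat 1 the difference was -11.3 points with an adjusted p of 0.0202. For obese against lean rats it was 4.87 ± 2.63 points (adjusted p = 0.207). Mean S and G2M scores passed in none of the contrasts either (limma adjusted p from 0.432 to 0.897). The mean G2M score of all 3 treated rats did lie below all 4 untreated obese rats (exact permutation p = 0.0286, adjusted p = 0.136). Limma called 0 of 19 types (0.00%) there, and how many other types lay apart on this score was not counted. The contrasts share the untreated obese rats, and they called 0.00% (treated against untreated) and 5.56% of types for the G2M percent.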

How the data were processed

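Kidney cells of 11 rats were captured in droplets, with 1 library per rat, and sequenced. Cell Ranger 7.0.1, Seurat 4.3.0 and the build rn6 appear in the submitters' processing notes without their roles. The sources used here do not give the cell filters, the treatment of doublets and free RNA or the way types were named. The authors deposited 1 table with a row per cell. UMIs and genes per cell are deposited counts, not normalized, per the file headers. The mitochondrial share is a deposited percent, and S and G2M values are a deposited score per cell. Sample codes tied cells to animals, and 0 cells disagreed with the labels.

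Numbers of cells per type and animal were tested with edgeR 4.0.16 (quasi-likelihood, robust, no abundance trend) in 1 fit over the 3 groups. The library size was the number of all cells, or of the cells of the compartment. The filter was a mean of 10 cells per animal, which 20 types passed. The standard error was taken as the size of the log2 fold change divided by the root of F. Ratios (pseudocount 0.5) and medians per type (at least 20 cells) were tested with limma 3.58.1. Adjustment was by Benjamini and Hochberg over all types of a contrast, at 0.05. Single values had exact two-sided permutation tests. DESeq2 1.42.0 served as an alternative. Both R tests were tested on simulated data.

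IC-A, the other collecting duct types, DCT and DCT/CNT are named by rule. The 8 partners of called ratios, the spread in obese rat 4 and the cells near the upper end of genes were singled out after their values were seen. The members, lists and tests were chosen with earlier results of these data known.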

Additional observations from a re-analysis of the deposited data

Results flagged for a closer look

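In groups of 4 animals, a value was taken for a closer look when its gap to the nearest other animal, over the range of the group, exceeded Dixon's 95% critical value, which chance does in about 1 of 20 groups. Of 42 such groups of IC-A values, 7 met this. The groups are measures of the same animals and are not independent, so this count cannot be set against that rate. Lean rat 2, the shallowest library, gave 4 of the 7. Its IC-A cells under 2000 UMIs made up 100% (5.26% to 11.2% in the other lean rats), those under 5% mitochondrial UMIs 52.0% (3.88% to 7.24%) and those called S 11.2% (32.6% to 34.0%). Its IC-A median was 1.21 times the UMIs of other non-immune cells, against 2.56 to 2.75 times. In lean rat 4, IC-A cells lay 8.58 percentage points above the other non-immune cells in median mitochondrial percent, against 0.903 to 2.14. In obese rat 3, 52.1% of IC-A cells had at least 2500 genes, against 6.08% to 10.1% in the other obese rats. In obese rat 2, 34.3% of IC-A cells were called S, against 29.7% to 30.3%.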

How the results depend on the processing

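No alternative reversed the fall of IC-A cells among all cells between obese and lean rats, but several ended the call: non-immune cells as denominator (-1.20), the same without lean rat 2 (-0.56), cells with at least 1000 UMIs (-1.12), the same without lean rat 2 (-0.98), cells under 10% mitochondrial UMIs (-2.48), IC-A and IC-A/B as 1 type without lean rat 2 (-0.75) and the exact permutation test (-1.59), which no type could pass in this design. Leaving out 1 animal gave -1.94 to -0.92. The cause was not tested. For treated obese against lean rats, DESeq2 with its own size factors (-1.47), IC-A and IC-A/B as 1 type (-1.65), all intercalated cells as 1 type (-1.56) and sums by the start of the sample code (-1.15) passed, where edgeR on IC-A alone in single animals did not. For treated against untreated obese rats the sign turned with the non-immune denominator (-0.051, and -0.050 without lean rat 2), with IC-A/B joined (-0.22, with and without lean rat 2) or all intercalated types joined (-0.038), and leaving out 1 animal gave -0.00085 to 0.59. The alternatives without lean rat 2 at a set depth, denominator or joining of types, the median depth of each animal and the share of UMIs were chosen after seeing the data.

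Within the collecting duct, leaving out IC-A/B turned the sign for treated obese against lean (-0.15) and against untreated obese rats (-0.010), and leaving out 1 animal gave -0.049 to 0.18 for the former. Among the ratios of treated to untreated obese rats, cells under 10% mitochondrial UMIs turned DCT/CNT (0.068) and PC (0.68), and IC-B turned for obese against lean rats (-0.42). Leaving out 1 animal turned the ratio to IC-B (-0.17 to 0.62), PC (-0.20 to 0.039), DCT (-0.17 to 0.21) and DCT/CNT (-0.31 to 0.0095). The number of ratios called between obese and lean rats was 8 by limma. It was 0 by the exact test, as the design fixed: its smallest p is 0.0286, and 8 of 19 ratios did not overlap. For treated obese against lean rats it was 3 by limma, 1 with at least 1000 UMIs and 0 under 10% mitochondrial UMIs. It was 0 to 4 without 1 animal. It was also 0 by the exact test, again as the design fixed. The smallest p of 3 against 4 animals is 0.0286 as well, and 7 of 19 ratios did not overlap. Between the obese groups the number called was 2 with at least 1000 UMIs and without lean rat 2, and 0 to 3 without 1 animal.

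For treated obese against lean rats, the difference from the other non-immune cells turned UMIs (-0.057), genes (-0.078) and the mitochondrial percent (-3.49), and cells with at least 1000 UMIs turned UMIs (-0.11), genes (-0.21), the mitochondrial percent (-0.30) and the percent called S (-1.02). For obese against lean rats, the former turned the mitochondrial percent (-3.79), and the latter genes (-0.046), the percent called S (-1.20), the percent under 5% mitochondrial UMIs (7.26) and the mitochondrial gap to IC-B (-0.055). Between the obese groups, the former turned the mitochondrial percent (0.30), and a window of 2000 to 4000 UMIs turned genes at matched depth (-0.069), with 1 treated animal in either window. A bound of 20% in place of 5% turned the share of low mitochondrial cells in treated obese against lean rats (-6.71). At 1000 to 2000 UMIs, no value could be had for genes against lean rats, and the window of 2000 to 4000 gave one.

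Without 1 animal, treated against untreated obese rats ran from -0.52 to 0.29 for UMIs, -0.41 to 0.19 for genes, -9.43 to 0.83 points for the mitochondrial percent, -9.23 to 21.6 for the percent under 5%, -2.64 to 2.57 for S, -11.3 to -5.28 for G2M (passing without treated rat 1) and -0.00206 to 0.00070 for the mean S score. Treated obese against lean rats ran from -0.10 to 1.19 for UMIs, -0.21 to 0.77 for genes, -3.41 to 6.85 points for the mitochondrial percent, -13.8 to 17.97 for the percent under 5% and -1.51 to 6.09 for S. Obese against lean rats ran from 3.10 to 8.39 points for the mitochondrial percent, 0.29 to 1.05 for the ratio to DCT, -0.074 to 0.87 for genes, -12.2 to 7.16 for the percent under 5% and -2.27 to 5.33 for S. The gap to IC-B ran from -0.21 to 0.042 for log2 UMIs between the obese groups, and for the mitochondrial percent from -0.73 to 0.92 (obese against lean), -3.58 to 0.92 (treated against untreated obese) and -3.36 to 1.14 (treated obese against lean). The mitochondrial gap to PC ran from -1.87 to 3.52 for obese against lean and from -0.47 to 4.92 for treated against untreated obese rats.

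Replicate numbers were not used to pair the animals in the main fits. Correlations of same-numbered animals ran from -0.472 to 0.513. Animals of different numbers were not compared, so this range cannot settle whether the numbers pair. With the replicate number as a block, the fall between treated obese and lean rats passed (-1.46, adjusted p = 0.0444), 7 ratios were called in that contrast, and the sign turned for the share of the collecting duct (-0.024), for the ratio to DCT between the obese groups (-0.18) and for the mean S score (0.00015). Depth limits what lean rat 2 can show, with 2 of its 448 IC-A cells at 1000 UMIs or more.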
